A study of Mus musculus with 407 samples.

Results

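Collagen chain genes are the genes whose symbol follows the pattern Col, a number, a, a number. Of 24458 gene symbols in the deposited counts, 44 matched it. By the superfamily classes they comprised 11 fibrillar chains, 9 FACIT chains, 6 basement membrane (type IV) chains, 6 beaded (type VI) chains, 4 transmembrane chains, 3 network chains (types VIII and X), 2 multiplexins and 3 anchoring and other chains (Col7a1, Col26a1 and Col28a1). Their RNA was followed in 4 muscles of C57BL/6J mice, the diaphragm and the gastrocnemius, soleus and tibialis anterior of the hind limb. Male and female mice were sampled at 6 ages, the youngest 6 and 12 months and the older ones 18, 21, 24 and 27 months. The mice carried no engineered allele and received no treatment, and they had been bought at various ages and held in 1 facility for about 12 weeks before the muscles were taken. The 407 total RNA libraries fell into 48 groups of sex, muscle and age with 6 to 10 libraries each, and the 6-month and 27-month groups of every sex and muscle held 8 and 10.

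Collagens are triple-helical proteins, and each chain gene encodes 1 of the chains that wind into the helix. Fibrillar collagens (types I, III, V and XI) assemble into the banded fibres of tendon and of the connective tissue sheaths that carry force through muscle, FACIT collagens decorate those fibres, type IV collagens form the sheet of the basement membrane around every muscle fibre and capillary, and type VI collagens make beaded filaments that link that sheet to the fibres. In muscle these chains are made mainly by fibroblasts and tenocytes, with the major type IV chains also made by endothelial cells and muscle fibres. In whole muscle, fewer cells of a type and less RNA per cell cannot be told apart.

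Library totals ran from 38583802 to 300089909 counts, with a median of 72766895. Levels are given as CPM, the usual scale of a gene's counts relative to the library total, after scaling by TMM (trimmed mean of M values). In 8 libraries, 6 of diaphragm and 2 of gastrocnemius, gene levels followed GC content by more than 0.5 log2 units per 10 percentage points, against -0.22 to 0.26 in the other 399. For example, the male diaphragm library of 6 months, replicate 2, read 20.5 CPM of Col1a1 where the median of the others in its group was 292 CPM. A 9th library, male diaphragm at 21 months, replicate 3, held 31903 CPM of liver marker RNA. Among the 8, male diaphragm at 27 months, replicate 6, also held 11911 CPM of it. The comparisons of 27 with 6, 27 with 12 and 12 with 6 months, of muscles and of sexes were also run without these 9 libraries, and values that changed a call named here are given, while the comparisons of 18, 21 and 24 with 6 months were run with all libraries alone. Muscle identity followed the labels for the mesothelial list, which summed to a median of 150 CPM in male diaphragm at 6 months and to 0.557 CPM in male gastrocnemius, and whether this covering layer of the diaphragm bears on the collagen levels there was not tested.

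Levels per kilobase were taken over the longest GENCODE transcript of each gene, which may differ in length from the gene model used for counting. On this scale Col1a1 and Col1a2 had the 2 highest median levels of the collagen RNAs in the limb muscles of both sexes at 6 months. Col3a1 ranked 1st in the diaphragm, 3rd in gastrocnemius and soleus and 4th in tibialis anterior, behind Col4a1. In males at 6 months Col1a1, the chain that supplies most of the type I helix, had a median of 32.1 CPM per kb in tibialis anterior, 42.1 in gastrocnemius and 42.6 in soleus, and its partner Col1a2 stood at 30.7, 43.2 and 41.1 CPM per kb. In the male diaphragm Col3a1, the chain of the type III fibrils of compliant tissues, came first at 72.8 CPM per kb. Col4a1, a chain of the ordinary basement membrane sheet, ranked between 3rd and 7th of the 44 in the 8 groups, and Col6a1, a type VI chain, between 3rd and 6th. At the other end, Col10a1, the chain of cartilage growth plates, passed the filter on low counts in none of the 8 fits, Col9a1 passed it in 4, and 40 of the 44 genes passed it in every fit. The highest female diaphragm library nevertheless held 28.8 CPM of Col10a1 at 6 months and 67.7 CPM at 27 months, over group medians of 0. The low end is thus thinly measured.

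Promoters are shown for Col1a2 and Col3a1, the abundant fibrillar genes with a RefSeq promoter entry whose changes with age lead the results below, each with a motif found in it. Each line gives the 250 bases before the RefSeq start on the GRCm38.p6 build, 5′ to 3′ on the gene's own strand, with the motif in capitals. The Col1a2 window is chr6:4505368-4505617 on the plus strand, with the CCAAT box 109 bases before the start, and the Col3a1 window is chr1:45311288-45311537 on the plus strand, with TATAAA 117 bases before the start.
Col1a2: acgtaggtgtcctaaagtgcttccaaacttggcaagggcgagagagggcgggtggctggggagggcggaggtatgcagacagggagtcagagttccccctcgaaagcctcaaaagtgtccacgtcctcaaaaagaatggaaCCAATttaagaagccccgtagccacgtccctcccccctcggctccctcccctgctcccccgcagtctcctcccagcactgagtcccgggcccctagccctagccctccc
Col3a1: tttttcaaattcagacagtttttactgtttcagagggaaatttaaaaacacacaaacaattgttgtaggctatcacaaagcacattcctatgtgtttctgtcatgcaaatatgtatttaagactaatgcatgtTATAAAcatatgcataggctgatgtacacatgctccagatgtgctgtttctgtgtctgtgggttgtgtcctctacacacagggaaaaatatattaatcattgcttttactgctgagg
On either strand, CCAAT occurred in 13 of 38 windows of the 35 collagen genes with an entry, against 33.8% of all 32851 windows, and TATAAA in 5 of 38, against 12.4%. These shares were close to those of all windows.

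Which collagens changed between young adult and old muscle was asked for each sex and muscle on its own, in 8 fits. Collagen RNAs mostly fell, and the fibrillar chains fell most often. A gene counted as fallen or risen with an adjusted p below 0.05 and a change above 1.5-fold in the quasi-likelihood test of edgeR, adjusted by Benjamini-Hochberg over all genes. Over the 8 fits, 76 of 332 tests of collagen genes fell (22.9%) and 6 rose, where 1.21% of tests of all genes fell and 2.96% rose. The estimate was below 0 in 250 of the 332. The median log2 fold change of the collagen genes lay between -0.65 and -0.20 in the 8 fits, and that of all genes between -0.03 and 0.03.

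In males, 6 collagen genes fell and 1 rose in diaphragm (1.44% and 4.16% of all genes tested), 11 fell and 2 rose in gastrocnemius (1.53% and 3.88%), 10 fell and 0 rose in soleus (0.378% and 0.808%), and 12 fell and 0 rose in tibialis anterior (1.29% and 2.81%). In females, 10 fell and 0 rose in diaphragm (0.692% and 0.543%), 4 fell and 0 rose in gastrocnemius (0.898% and 4.08%), 18 fell and 2 rose in soleus (2.41% and 1.72%), and 5 fell and 1 rose in tibialis anterior (1.08% and 5.93%). At an unadjusted p under 0.05 the 4 fits with no rise held 1 estimate above 0 in male soleus, 3 in male tibialis anterior, 0 in female diaphragm and 7 in female gastrocnemius, and over all 8 fits DESeq2 called 7 rises and limma-voom 5. In female tibialis anterior 9 of 10 liver markers also rose, with a median log2 fold change of 3.39 and a summed level of 7.46 to 33.6 CPM at 6 months and 12.8 to 692 CPM at 27 months, and the part of liver RNA in the collagen values there was not tested. In male diaphragm 0 of 10 liver markers were called, with a median log2 fold change of 3.10, and that part was not tested either. The median was -2.28 in male gastrocnemius and -1.44 in female diaphragm. So some collagen genes fell in every sex and muscle, while genes at large went up more often than down in 6 of the 8. In male diaphragm 0 of the 11 fibrillar chains were called (1.44% of all genes fell there), and their median log2 fold change was -0.54. The count of falls in male diaphragm was also lower with a term for the run of sample numbers. Without the libraries that stand apart, 9 fell in male diaphragm (2.91% of all genes), 17 in female diaphragm (1.52%) and 6 in female gastrocnemius (1.02%). Col1a1, Col5a1 and Col6a2 were added in the diaphragm of both sexes, and Col5a3, Col8a2, Col11a1 and Col11a2 in that of females.

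**Figure D1:**
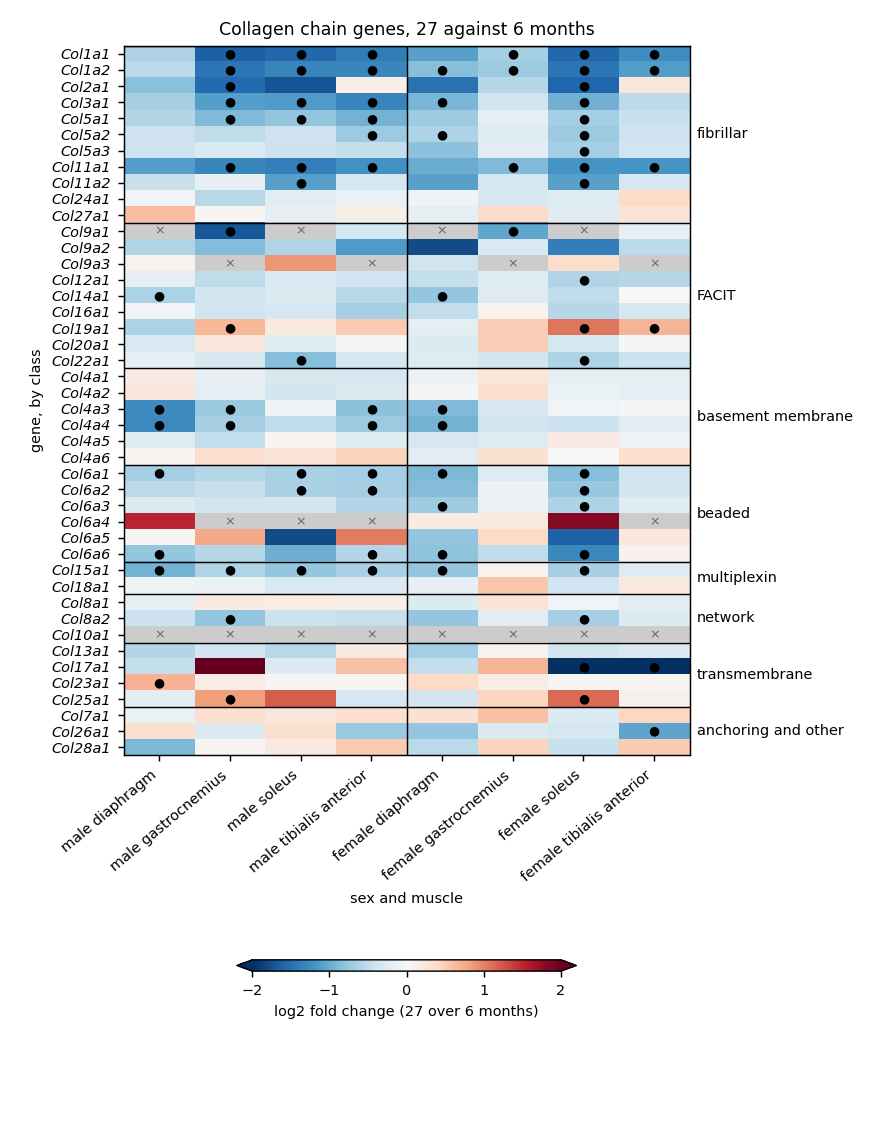
Log2 fold change of each collagen gene at 27 against 6 months (rows, by class) in the 8 sex and muscle fits (columns), with dots for genes that passed the test and crosses for genes not tested. The fibrillar block is the most densely marked, with 36 of 88 tests, and Col4a1 and Col4a2 carry no mark.

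The fibrillar class accounted for 36 of the 76 falls, in 88 tests (40.9%), and for none of the rises. Col1a1 in male gastrocnemius ran from 238 to 346 CPM at 6 months, with a median of 250, and from 27.2 to 123 CPM at 27 months, with a median of 93.1. All 10 old libraries lay below the lowest young one. The log2 fold change was -1.63 ± 0.21 (SE), with an adjusted p of 7.61e-08. In male soleus the Col1a1 range went from 191 to 312 CPM down to 38.0 to 136 CPM, and in male tibialis anterior from 128 to 294 CPM down to 35.4 to 124 CPM. Young and old libraries of these muscles did not overlap either, and the log2 fold changes were -1.57 ± 0.19 and -1.39 ± 0.24. In females Col1a1 fell from a median of 376 to 111 CPM in soleus (log2 fold change -1.57 ± 0.23, adjusted p = 2.11e-06) and from 206 to 75.0 CPM in tibialis anterior (-1.24 ± 0.25, adjusted p = 0.000172). In soleus 9 and in tibialis anterior 8 of the 10 old libraries lay below every young one.

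In female gastrocnemius Col1a1 went from a range of 191 to 344 CPM, median 286, to a range of 95.2 to 575 CPM, median 113. Old replicate 0, which stands apart by its GC slope, was above every young library, and 8 of the 10 old libraries were below every young one. The log2 fold change of -0.66 ± 0.23 (adjusted p = 0.0219) became -1.08 ± 0.17 without that library, and the call was lost when old replicate 5 or 8 was left out (highest adjusted p 0.0518). In diaphragm Col1a1 went from a median of 287 to 168 CPM in males and from 299 to 141 CPM in females, with log2 fold changes of -0.61 ± 0.30 and -1.09 ± 0.36 that did not pass the test. Without the libraries that stand apart these were -0.68 ± 0.20 (adjusted p = 0.0184) and -1.14 ± 0.19 (adjusted p = 0.000238), and both passed.

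Col1a2, whose product joins that of Col1a1 in the type I helix, fell in 7 of the 8 fits. In male gastrocnemius its median went from 231 to 96.1 CPM and in female soleus from 336 to 104 CPM, with log2 fold changes of -1.44 ± 0.18 and -1.46 ± 0.21. Old and young libraries did not overlap in the 3 male limb muscles. In male diaphragm the median went from 264 to 176 CPM, and the log2 fold change of -0.54 ± 0.16 (adjusted p = 0.0309) missed the fold limit.

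Col3a1 fell in 5 fits. In male tibialis anterior it went from a range of 108 to 171 CPM to one of 19.9 to 89.8 CPM (log2 fold change -1.32 ± 0.23, adjusted p = 3.64e-05), and in female diaphragm from a median of 441 to one of 209 CPM (-0.92 ± 0.18, adjusted p = 0.00215). In the first of these no old library reached the young range, and in the second 9 of 10 lay below it. In male diaphragm the medians were 405 and 219 CPM, but old replicate 8 held 739 CPM, and the adjusted p was 0.0530. Leaving out 1 library at a time gave adjusted p values of 0.00113 to 0.107, and the call was made in 6 of 18 such fits, that without old replicate 8 among them. Without the libraries that stand apart the value was -0.54 ± 0.23 (adjusted p = 0.0965). In female gastrocnemius the value was -0.40 ± 0.20 with all libraries and -0.75 ± 0.14 without replicate 0.

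The minor fibril chains followed. Col11a1, a chain of the type XI collagen that nucleates fibrils in cartilage and tendon, fell in all 6 limb fits, from a median of 14.7 to 6.46 CPM in male soleus and from 21.2 to 8.93 CPM in female soleus. Old and young libraries of both groups were separate. The log2 fold changes were -1.37 ± 0.20 and -1.19 ± 0.17. Col5a1, a chain of the type V collagen that limits fibril width, fell in the 3 male limb muscles and in female soleus. Its median in male tibialis anterior went from 40.1 to 20.9 CPM (log2 fold change -0.95 ± 0.15), with no overlap. Col2a1, the main chain of cartilage fibrils, had medians of at most 1.13 CPM at 6 and 27 months, although single female diaphragm libraries reached 29.4 CPM at 6 months and 8.54 CPM at 27 months, and it fell in male gastrocnemius, from a median of 0.523 to 0.218 CPM (-1.55 ± 0.27), and in female soleus, from 1.13 to 0.373 CPM (-1.58 ± 0.37). Of the 11 fibrillar genes, 9 fell in at least 1 fit, the others of them being Col5a2 and Col5a3, further type V chains, and Col11a2, a further type XI chain. The Col5a2 call in female diaphragm (-0.61) was lost in 10 of 18 fits that left out 1 library.

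**Figure D2:**
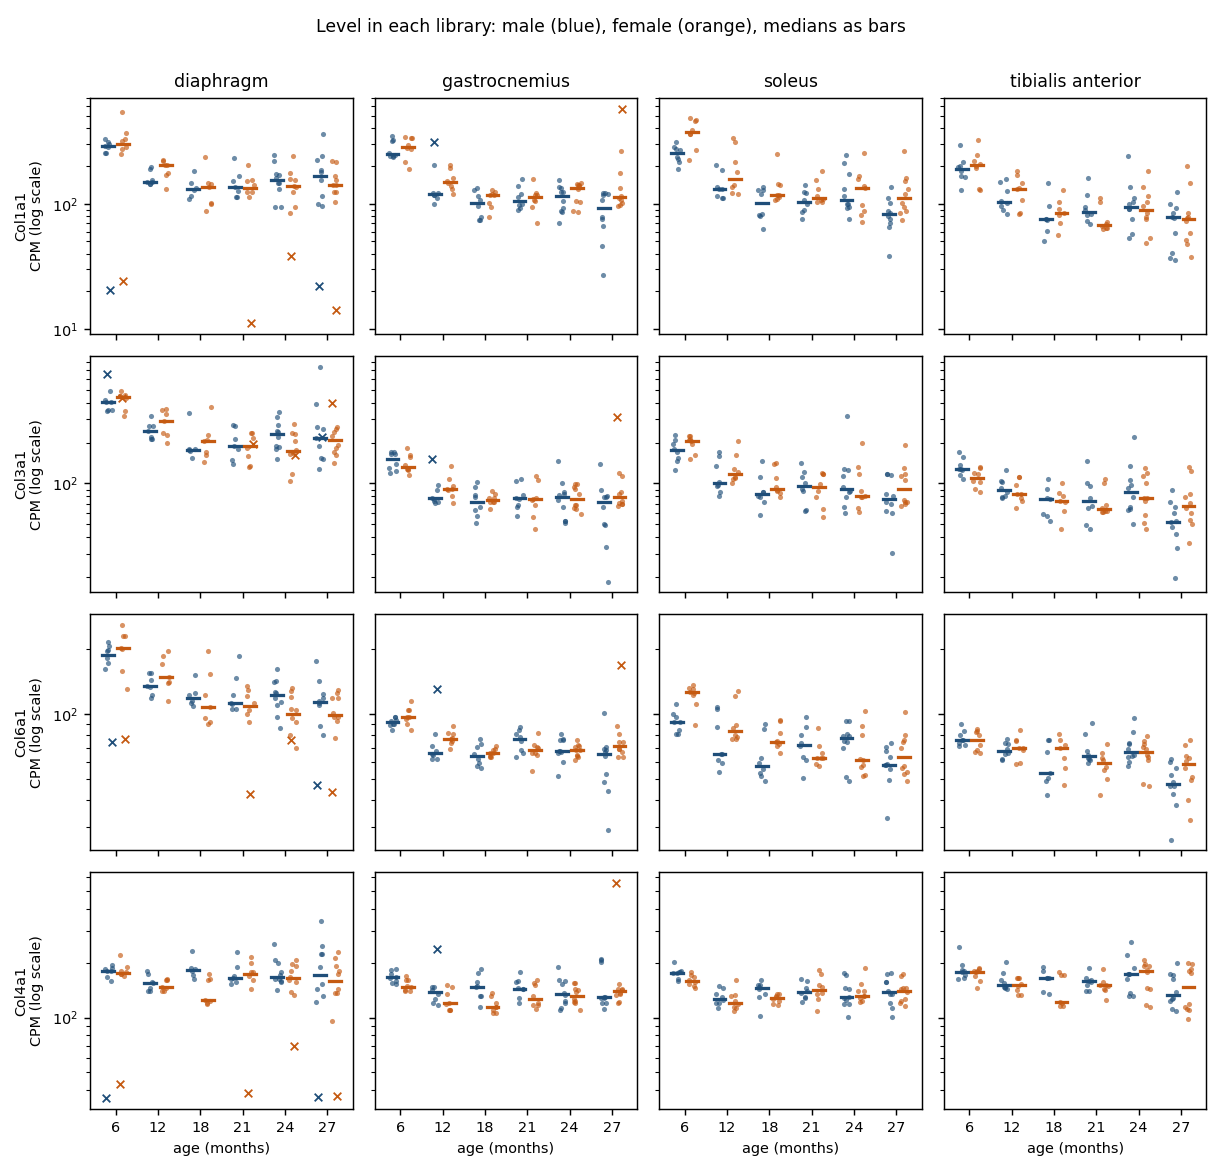
CPM of Col1a1, Col3a1, Col6a1 and Col4a1 in every library (points on a log axis, males blue, females orange, medians as bars) against age in months in the 4 muscles, with crosses for the libraries past the GC limit. Median Col1a1 in male gastrocnemius goes from 250 CPM at 6 to 101 CPM at 18 months, and median Col4a1 from 167 to 148 CPM.

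Among the 6 basement membrane chains the abundant pair and the minor pair parted. Col4a1 in male gastrocnemius ran from 153 to 186 CPM, median 167, at 6 months and from 112 to 211 CPM, median 129, at 27 months. Old libraries lay on both sides of the young range, 7 below and 3 above it. The log2 fold change was -0.16 ± 0.12 (adjusted p = 0.369). Across the 8 fits Col4a1 changed by between -0.34 and 0.25 and Col4a2 by between -0.39 and 0.33 on the log2 scale, and neither was called. Of these estimates 4 had an adjusted p below 0.05, both genes in male soleus and male tibialis anterior, with folds of 0.763 to 0.816 that missed the fold limit. Without the libraries that stand apart Col4a1 in female gastrocnemius moved from 0.25 to -0.14.

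All 8 falls of the class, in 48 tests (16.7%), were of Col4a3 and Col4a4, which form the tighter sheet known from kidney and lung. In male diaphragm Col4a3 went from a range of 5.41 to 9.79 CPM to one of 1.43 to 5.09 CPM. Col4a4 went from 6.57 to 11.2 CPM to 1.37 to 5.60 CPM. For both genes all 10 old libraries were below all 8 young ones, with log2 fold changes of -1.26 ± 0.18 (adjusted p = 1.16e-05) and -1.27 ± 0.24 (adjusted p = 0.000912). Both also fell in female diaphragm (-0.88 ± 0.15 and -0.95 ± 0.17), in male gastrocnemius (-0.75 ± 0.12 and -0.66 ± 0.16) and in male tibialis anterior (-0.82 ± 0.13 and -0.72 ± 0.17), and the gastrocnemius call of Col4a4 was lost without old replicate 1 (-0.57). In soleus neither was called, and Col4a3 there had medians of 4.06 and 3.69 CPM in males and of 3.06 and 3.08 CPM in females.

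The type VI chains fell in 14 of 44 tests (31.8%). Col6a1 in male tibialis anterior ran from 71.0 to 89.8 CPM at 6 months and from 26.2 to 61.8 CPM at 27 months, and in male soleus from 80.5 to 112 CPM and from 33.2 to 73.7 CPM. Neither pair of groups overlapped. The log2 fold changes were -0.69 ± 0.11 (adjusted p = 2.12e-05) and -0.65 ± 0.14 (adjusted p = 0.00382). Col6a1 also fell in female soleus, from a median of 126 to 63.6 CPM, and in the diaphragm of both sexes, from 189 to 114 CPM in males and from 202 to 99.5 CPM in females. The male diaphragm and male soleus calls were lost without old replicate 6 and old replicate 8, at -0.58 in both, through the fold limit. Col6a2 fell in female soleus, male soleus and male tibialis anterior, the male calls lost without old replicate 8 of each group (-0.57 and -0.58). Col6a3, the long chain that completes the type VI monomer, fell in female diaphragm (median 168 to 89.6 CPM, -0.71 ± 0.15) and female soleus (120 to 69.9 CPM, -0.61 ± 0.12), and the second call was lost in 3 of 18 fits that left out 1 library.

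Col6a6, an alternative to the third type VI chain, fell in the diaphragm of both sexes, in male tibialis anterior and in female soleus, where its median of 2.04 CPM went to 0.720 CPM (log2 fold change -1.30 ± 0.32). The male tibialis anterior call (-0.59 ± 0.15) was lost in 8 of 18 fits that left out 1 library. Col6a5, another such alternative, was called in no fit. Its male gastrocnemius range widened from 0.627 to 1.24 CPM at 6 months to 0.348 to 9.42 CPM at 27 months, with 9 of the 10 old libraries not above the young range.

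The FACIT chains were called in fewer tests, 7 falls (10.9% of 64) and 3 rises. Col9a1, a chain of the type IX collagen that coats cartilage fibrils, fell in gastrocnemius, from a median of 0.967 to 0.340 CPM in males (log2 fold change -1.70 ± 0.23, adjusted p = 1.85e-07) and from 0.635 to 0.288 CPM in females (-1.04 ± 0.23). All 10 old male libraries were below the young range. Col14a1, which binds the surface of type I fibrils, fell in the diaphragm, from a median of 140 to 77.8 CPM in males and from 174 to 101 CPM in females (-0.64 ± 0.17 and -0.78 ± 0.17). The male call was lost without old replicate 8. Col22a1, the collagen of the muscle-tendon junction, fell in soleus, from 15.2 to 8.13 CPM in males and from 22.7 to 14.3 CPM in females (-0.85 ± 0.18 and -0.62 ± 0.15). Col12a1, which sits between fibrils in tendon and fascia, fell in female soleus (120 to 82.9 CPM, -0.61 ± 0.16, adjusted p = 0.00419). The 2 female soleus calls lie close to the fold limit, and each was lost in 4 of 18 fits that left out 1 library.

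Col19a1, a FACIT chain made by muscle cells during development, was the FACIT gene that rose. In male gastrocnemius it went from a range of 3.58 to 6.69 CPM to one of 5.91 to 10.2 CPM (log2 fold change 0.66 ± 0.15, adjusted p = 0.00118), and 8 of 10 old libraries were above every young one. In female soleus its median went from 0.378 to 0.687 CPM (1.07 ± 0.31) and in female tibialis anterior from 2.47 to 3.48 CPM (0.69 ± 0.22, adjusted p = 0.0166). In each of these 7 old libraries were above the young range. The tibialis anterior call was lost without old replicate 2 (adjusted p = 0.0783). In female gastrocnemius the value was 0.49 ± 0.12 (adjusted p = 0.00138), under the fold limit, with 9 of 10 old libraries above the young range.

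Among the remaining classes, Col15a1, the multiplexin of the zone just outside the basement membrane, fell in all 4 male fits and in female diaphragm and soleus, 6 of the class's 16 tests (37.5%). In male soleus it went from a range of 53.1 to 66.5 CPM to one of 14.8 to 47.8 CPM (-0.77 ± 0.13, adjusted p = 0.00021), with no overlap. In female gastrocnemius its medians were 53.4 and 44.3 CPM, and the estimate was 0.07 ± 0.16 with all libraries and -0.24 ± 0.09 without old replicate 0. The tibialis anterior call of males was lost without old replicate 8 (-0.56). The male gastrocnemius call (-0.60 ± 0.13) stood at the fold limit and was lost in 8 of 18 fits that left out 1 library and without the libraries that stand apart (-0.58 ± 0.12). The female diaphragm call (adjusted p = 0.0311) was lost in 6.

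The network chains fell in 2 of 16 tests (12.5%), both of Col8a2, a chain of the endothelial and corneal type VIII network. Its median went from 2.31 to 1.28 CPM in male gastrocnemius (-0.79 ± 0.15) and from 5.91 to 3.60 CPM in female soleus (-0.66 ± 0.19). Its partner Col8a1 was not called in any fit. Of the anchoring and other chains, 1 of 24 tests fell (4.17%), Col26a1 in female tibialis anterior, from a median of 0.265 to 0.150 CPM (-1.06 ± 0.35, adjusted p = 0.0218), and leaving out young replicate 6 ended that call (adjusted p = 0.0578).

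The transmembrane chains were called in both directions, with 2 falls in 32 tests (6.25%) and 3 rises. Col25a1, a membrane collagen needed for motor innervation of muscle in development, rose in male gastrocnemius, from a median of 0.233 to 0.372 CPM (0.83 ± 0.26, adjusted p = 0.0157), and in female soleus, from 0.898 to 1.35 CPM (1.13 ± 0.39, adjusted p = 0.0334). In these groups 7 and 6 of the 10 old libraries were above the young range, and the soleus call was lost in 6 of 18 fits that left out 1 library. Col23a1 rose in male diaphragm, from 5.64 to 9.14 CPM (0.70 ± 0.16), with 7 old libraries above the young range. Col17a1, the collagen of epithelial hemidesmosomes, gave both falls, and each came from 1 young library: in female soleus the 6-month group had a median of 0.114 CPM and a highest library of 57.0 CPM, and the log2 fold change of -5.88 ± 1.2 became 0.27 without it. In female tibialis anterior the 6-month median was 0.188 CPM and the highest library, replicate 7, 11.7 CPM, and the log2 fold change of -2.18 ± 0.61 turned to a rise of 1.11 (adjusted p = 0.0205) without it. In gastrocnemius Col17a1 reached 12.9 CPM in young males, 36.0 in old males, 19.7 in young females and 43.8 in old females, over medians of 0.280 to 9.01 CPM.

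The other 18 of the 44 genes were called in no fit. Col4a1, Col4a2, Col6a5 and Col8a1 have been described, and Col10a1 was not tested. Of the rest, Col9a2, a chain of the cartilage type IX collagen, had an estimate below 0 in 8 of 8 fits, from -1.78 to -0.31, at levels near the limit of detection. Col16a1, a FACIT chain, was below 0 in 7 fits (-0.67 to 0.07), as was Col24a1, a minor fibrillar chain (-0.56 to 0.40). Col4a5, a type IV chain, Col13a1, a membrane collagen of the neuromuscular junction, Col18a1, the multiplexin that yields endostatin, and Col20a1, a FACIT chain, were below 0 in 6 fits each. These genes thus mostly leaned down without passing the test. The other way, Col4a6 was below 0 in only 1 fit (-0.21 to 0.44), Col7a1, the anchoring fibril collagen of skin, in 2 (-0.29 to 0.58), and Col27a1, a minor fibrillar chain, and Col28a1 in 3 each. Col6a4, a further type VI chain, and Col9a3, a type IX chain, were tested in 4 fits each, with estimates of 0.16 to 1.83 and of -0.39 to 0.88.

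The ages in between were also set against 6 months. At 12 against 6 months 4 of 332 tests fell (0.0236% of all tests) and 0 rose (0.104%) in edgeR, with 98 below 0 and 5 above 0 at an unadjusted p under 0.05 and with 0 rises in DESeq2 and in limma-voom as well. Of the 332 estimates 269 were below 0 and their median per fit lay between -0.36 and -0.15. The 4 were Col1a1 (-0.88 ± 0.22), Col1a2 (-0.76 ± 0.19) and Col11a1 (-0.67 ± 0.17) in male gastrocnemius and Col17a1 in female tibialis anterior, again through its 1 high young library. When the libraries that stand apart were left out 8 tests fell, with Col3a1 in male gastrocnemius (-0.91 ± 0.24) and Col1a1 (-0.88 ± 0.17), Col1a2 (-0.79 ± 0.15) and Col3a1 (-0.59 ± 0.15) in female gastrocnemius added. The 8 were 4 in male gastrocnemius (0.0785% of all genes), 3 in female gastrocnemius (0.104%) and 1 in female tibialis anterior (0.0548%). At 18 against 6 months 55 fell (0.373%), at 21 months 74 (1.37%) and at 24 months 76 (1.25%). The count thus stood near its final size from 21 months on. Counts of calls also depend on the spread and on group size, so they do not date the fall. Estimates below 0 numbered 269 of 332 at 12 months and 250 at 27 months. These comparisons share their 6-month libraries, and mice of 1 age were collected on 1 day, so age and collection day cannot be told apart.

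**Figure D3:**
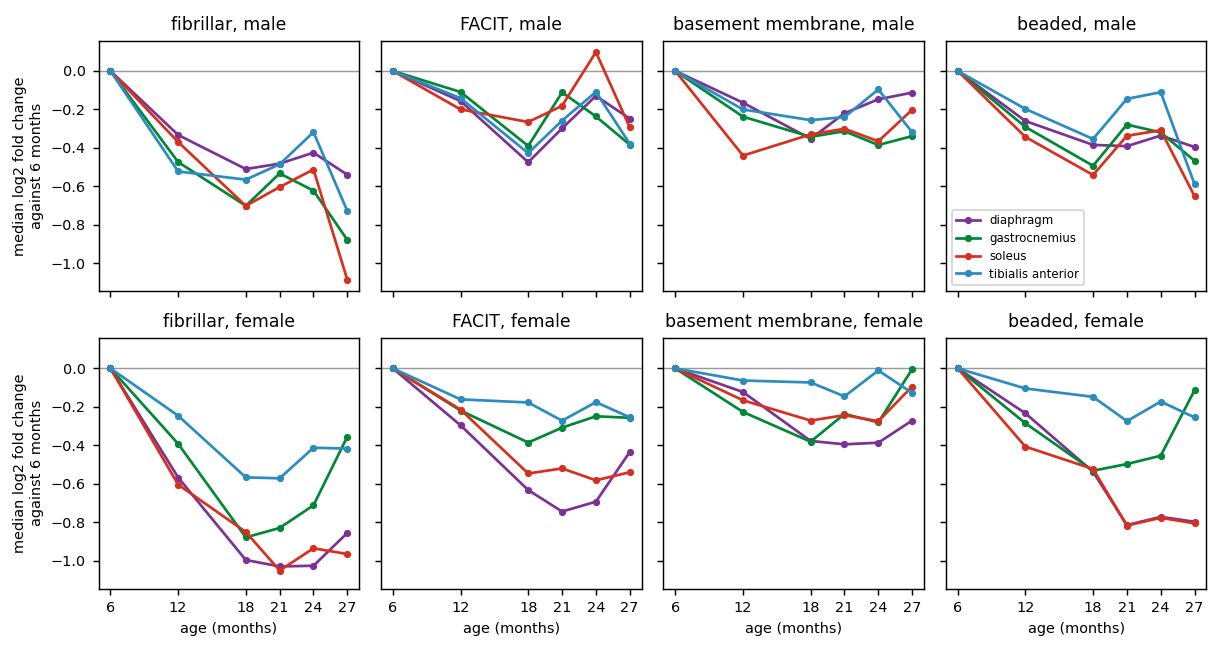
Median log2 fold change of the fibrillar, FACIT, basement membrane and beaded classes against 6 months (y axis) at 12, 18, 21, 24 and 27 months (x axis), by sex and muscle. The fibrillar line is below 0 at 12 months in all 8 fits and lies lower at 18 months, and the basement membrane line lies nearer 0, except in male soleus at 12 months.

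By class, the fibrillar chains gave 3 of the 4 falls at 12 months and 36 of the 55 at 18 months. Median Col1a1 in female soleus was 376 CPM at 6 months, 159 at 12, 119 at 18, 112 at 21, 134 at 24 and 111 at 27. In male gastrocnemius the medians were 250, 120, 101, 106, 115 and 93.1 CPM. By 12 months the medians had already made most of the drop in both. Median Col4a1 in male gastrocnemius was 167, 139, 148, 145, 135 and 129 CPM, so the basement membrane chain moved less.

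Between 12 and 27 months 18 tests fell (0.483%) and 10 rose (1.55%). Of the falls 12 were fibrillar: Col1a1 in male gastrocnemius and soleus (-0.74 ± 0.21 and -0.73 ± 0.19), Col1a2 in the 3 male limb muscles, Col11a1 in male gastrocnemius, male soleus and female tibialis anterior, Col3a1 and Col5a1 in male tibialis anterior (-0.79 ± 0.23 and -0.69 ± 0.15), Col2a1 in male gastrocnemius and Col24a1 in female gastrocnemius. The rises included Col28a1, a type VI-like chain of nerve sheaths, in male gastrocnemius (0.70 ± 0.18), female gastrocnemius (0.95 ± 0.22) and female tibialis anterior (0.89 ± 0.21). Col25a1 rose in male gastrocnemius (1.29 ± 0.27) and female soleus (1.51 ± 0.40). In male gastrocnemius the count of falls depended on 1 library, that of 12 months, replicate 7, which stands apart by its GC slope. That library held 311 CPM of Col1a1 where the median of the others was 119 CPM. With such libraries left out 2 collagen genes in place of 7 fell there, and 3 in place of 4 rose. Among the falls, Col1a1 (-0.49 ± 0.20, adjusted p = 0.0733), Col1a2 (-0.48 ± 0.17) and Col2a1 (-0.54 ± 0.26) were no longer called. The Col24a1 call in female gastrocnemius was lost as well (-0.56 ± 0.13). Falls in diaphragm went from 0 to 2 in males, Col4a3 and Col15a1, and from 2 to 5 in females, Col14a1, Col15a1 and Col6a6 being added. Over all 8 fits there were then 17 falls and 8 rises. With all libraries the 18 falls between 12 and 27 months stood beside 4 at 12 and 55 at 18 against 6 months. The intervals from 6 to 18 and from 12 to 27 months overlap, so their counts do not split the life span. No fibrillar chain rose between 12 and 27 months, in 88 tests, too few to be read against the 1.55% of all tests. In female gastrocnemius 9 of 42 collagen estimates were below 0 over this interval, with a median of 0.15. Without the libraries that stand apart 23 of the 42 were below 0, with a median of -0.02.

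The make-up of collagen RNA shifted with these changes. Summed over the 44 genes, the median went from 1520 to 1006 CPM in male gastrocnemius, from 2093 to 1078 CPM in female soleus and from 2402 to 1644 CPM in male diaphragm. Col1a1, Col1a2 and Col3a1 made up a median of 41.9% of that sum in male gastrocnemius at 6 months and 25.7% at 27 months, and 44.5% and 29.3% in female soleus. Col4a1 and Col4a2 went from 18.0% to 26.6% in the first and from 12.9% to 20.8% in the second. The share of the type VI trio moved less, from 17.5% to 20.0% and from 16.2% to 17.4%, and in diaphragm it went the other way, from 19.3% to 18.2% in males and from 19.3% to 18.7% in females. In male gastrocnemius the median ratio of Col4a1 to Col4a2 was 1.48 at 6 and 1.46 at 27 months. The median ratio of Col1a1 to Col1a2 there was 1.10 and 0.952, and it was lower at 27 months in 7 of the 8 groups of sex and muscle, the exception being female gastrocnemius at 1.17 and 1.19.

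The 4 muscles differed in their collagens already at 6 months. A gene was counted where it passed the test in the same direction in both sexes, against gastrocnemius. In diaphragm 17 of 44 were higher (21% of all genes) and 6 lower (17.6%), in soleus 7 were higher (9.18%) and 5 lower (8.32%), and in tibialis anterior 0 were higher (1.32%) and 4 lower (2.14%). At an unadjusted p under 0.05, 0 collagen genes in males and 1 in females were higher in tibialis anterior. The soleus share of collagen genes, at 7 and 5 of 44, is near that of all genes. The 17 of the diaphragm took in Col3a1, the type VI genes Col6a1, Col6a2, Col6a4, Col6a5 and Col6a6, the minor type IV genes Col4a4, Col4a5 and Col4a6, and both multiplexins.

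Col14a1, Col6a5 and Col4a6 were at least 4 times higher in diaphragm than in each limb muscle in both sexes. Median Col6a5 in males was 36.8 CPM in diaphragm against 0.461 in tibialis anterior, 0.901 in soleus and 0.947 in gastrocnemius, and the log2 difference from gastrocnemius was 5.30 ± 0.54 in males and 4.81 ± 0.61 in females. Median Col14a1 in males was 140 CPM against 8.71, 20.6 and 13.4 (3.21 ± 0.23 and 2.87 ± 0.19). Median Col4a6, a smooth muscle and epithelial basement membrane chain, was 5.91 CPM against 0.283, 0.366 and 0.742 (3.05 ± 0.37 and 3.47 ± 0.33). For Col14a1 the 8 young male diaphragm libraries, at 107 to 156 CPM, were all above the highest young male limb library, which held 32.4 CPM.

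Other chains set the limb muscles apart from each other. Col19a1 was lower in diaphragm (-2.57 ± 0.31 in males, -2.64 ± 0.25 in females) and in soleus (-2.46 ± 0.30 and -3.45 ± 0.26) than in gastrocnemius, where its medians were 5.58 and 4.06 CPM. Col9a1 was lower in soleus than in gastrocnemius in both sexes (-3.38 ± 0.62 and -4.09 ± 0.82), and its median in male diaphragm was 0 CPM. Col12a1 was higher in soleus (0.68 ± 0.20 and 1.44 ± 0.19), as was Col11a1 (1.01 ± 0.32 and 1.38 ± 0.33). Col8a1 was higher in both diaphragm (2.73 ± 0.17 and 2.31 ± 0.17) and soleus (1.82 ± 0.16 and 1.78 ± 0.17). Between tibialis anterior and gastrocnemius the differences were smaller, with Col4a5, Col4a6, Col8a2 and Col11a2 lower in tibialis anterior.

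**Figure D4:**
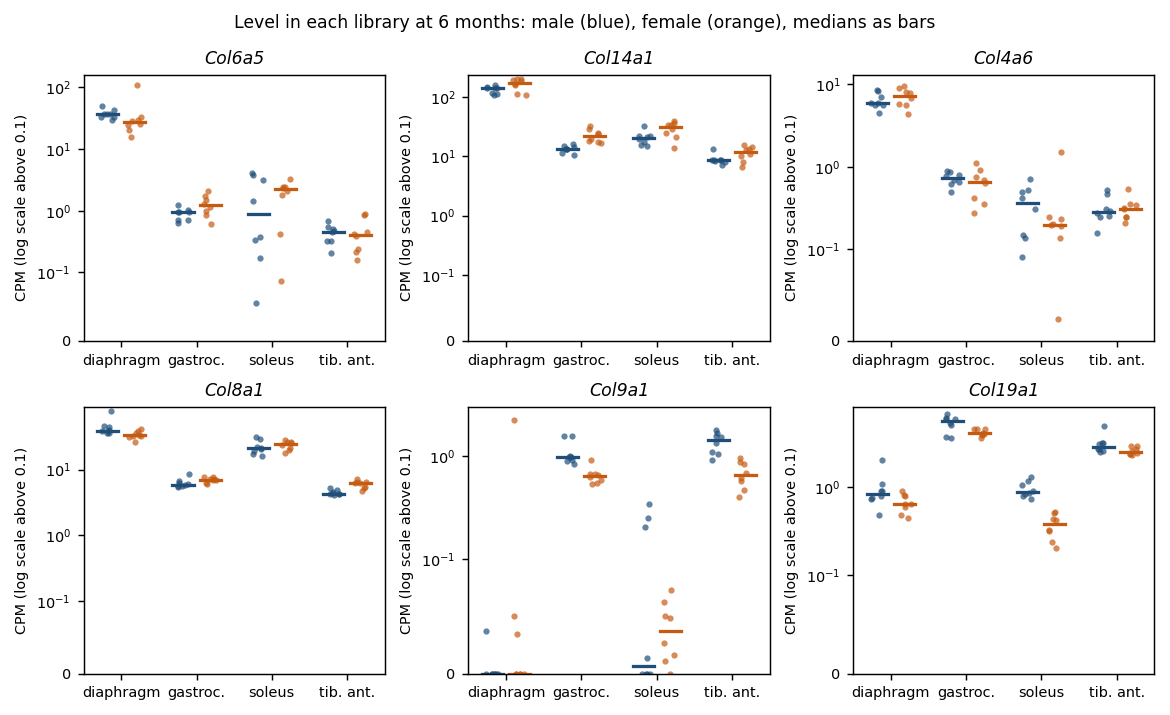
CPM of Col6a5, Col14a1, Col4a6, Col8a1, Col9a1 and Col19a1 in every library at 6 months (points, log axis above 0.1 CPM, males blue, females orange, medians as bars) in the 4 muscles. Col6a5, Col14a1 and Col4a6 are highest in diaphragm, where male Col14a1 runs from 107 to 156 CPM, and the medians of Col9a1 and Col19a1 are highest in gastrocnemius and tibialis anterior, although 1 female diaphragm library held 2.22 CPM of Col9a1.

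Whether the change with age differed between muscles was tested as a difference of the 27 against 6 month changes. There were 6 contrasts with gastrocnemius, each with 44 collagen genes tested. Pooled over them, 4 collagen tests fell below 0 (1.07% of all tests) and 1 lay above 0 (1.15%). With all libraries, counts this small do not set the collagens apart from all genes, and the single genes are given for their values. The fall of Col1a2 in males was smaller in diaphragm than in gastrocnemius, by 0.93 ± 0.25 log2 units (adjusted p = 0.0187). Col15a1 in females changed further down in diaphragm (-0.85 ± 0.22, adjusted p = 0.0121) and in soleus (-0.73 ± 0.22, adjusted p = 0.0320) than in gastrocnemius, where old replicate 0 held 152 CPM, and the soleus call was lost without the libraries that stand apart (-0.42 ± 0.17). Col6a5 in males changed further down in soleus (-2.50 ± 0.66, adjusted p = 0.0402), against a gastrocnemius group with 1 old library at 9.42 CPM. The 4th was Col17a1 in female soleus. Without the 9 libraries that stand apart 13 lay below 0 and 2 above, so the gastrocnemius comparison depends on those libraries. Of the 13, 7 of 44 were in female diaphragm, 4 of 44 in female soleus and 2 of 44 in male soleus. The shares of all genes below 0 there were 3.35%, 4.35% and 0.566%, against 1.67%, 2.53% and 0.253% with all libraries. The 2 above were 1 in male diaphragm (1.39% of all genes) and 1 in female soleus (4.55%).

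The sexes were compared within each muscle, with 42 to 44 collagen genes tested. Between them 1 collagen test was below 0 (0.535% of all tests), Col17a1 in tibialis anterior (-2.75 ± 0.71), and 2 were above (0.487%). These counts are likewise too small to set the collagens apart from all genes. In tibialis anterior Col4a3 went from a median of 6.02 to 3.53 CPM in males and from 3.21 to 3.20 CPM in females, and the female minus male difference in change was 0.78 ± 0.16 (adjusted p = 0.00357). Young males thus started above young females and old males ended near them. In gastrocnemius Col5a1 differed by 0.66 ± 0.19 (adjusted p = 0.0453), with medians of 52.9 and 27.6 CPM in males and 47.5 and 34.3 CPM in females, and this call was not made without the libraries that stand apart.

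Pairs of collagen genes varied together from library to library, most closely the chains of type I, the first 3 chains of type VI and the major chains of type IV. Deviations of log2 CPM from the group mean were correlated within each muscle over 91 to 103 libraries, those that stand apart left out, in 12 pairs and 48 relations, with p from 100000 permutations within groups. Col1a1 and Col1a2 had r of 0.982 in tibialis anterior, 0.978 in gastrocnemius, 0.971 in soleus and 0.967 in diaphragm. Col6a1 and Col6a2 had r of 0.950 to 0.961, Col6a1 and Col6a3 of 0.872 to 0.917, and Col4a1 and Col4a2 of 0.814 to 0.970. For these pairs every permutation p was 1.0e-05, the smallest the permutations can give, and leaving out the 2 most distant libraries left r at 0.789 or above. Col5a1 and Col5a2 had r of 0.621 to 0.820, Col4a3 and Col4a4 of 0.498 to 0.770, and Col8a1 and Col8a2 of 0.204 to 0.384. Pairs from different proteins covered much of the same span. Col1a1 and Col3a1 had r of 0.774 to 0.858, Col1a1 and Col6a3 of 0.599 to 0.708, and Col1a1 and Col15a1 of 0.489 to 0.713. Col1a1 and Col4a1 had r of 0.234 to 0.470, and Spearman's rho of 0.195 to 0.390, and in gastrocnemius the adjusted permutation p was 0.0862. Col9a2 and Col9a3, near the limit of detection, had r of -0.05 to 0.564, and the 0.564 in diaphragm was 0.0728 without the 2 most distant libraries. Both genes of a pair are read in the same library, at its depth and RNA quality, and what part these have in the correlations was not tested.

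**Figure D5:**
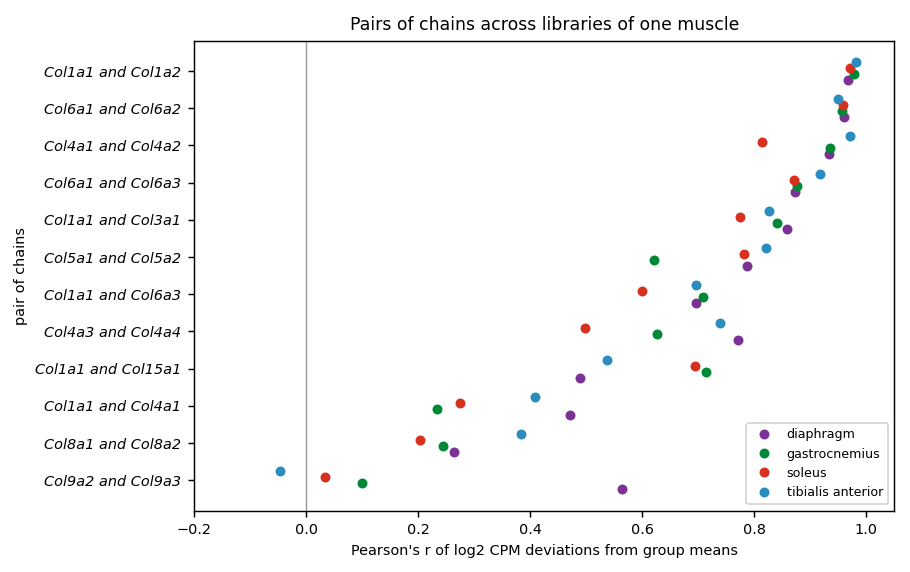
Pearson's r between the deviations of log2 CPM of 2 collagen genes from their group means (x axis) for each pair (y axis) in the 4 muscles (points). Col1a1 with Col1a2, Col6a1 with Col6a2 and Col4a1 with Col4a2 have r of 0.814 or above in each muscle, and among pairs of different proteins Col1a1 has r of 0.774 to 0.858 with Col3a1 and of 0.234 to 0.470 with Col4a1.

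Some of these pairs are also neighbours in the genome. On chromosome 8 Col4a1 and Col4a2 lie head to head and overlap by 85 bases at their starts, on chromosome 1 Col4a3 and Col4a4 lie head to head with an overlap of 114 bases, and on chromosome 10 Col6a1 and Col6a2 lie on 1 strand with 85161 bases between them. Col1a1, on chromosome 11, and Col1a2, on chromosome 6, are on different chromosomes and had the highest r. No source used here says whether the counting used strand, so reads in the short overlaps cannot be assigned to 1 gene with certainty.

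Other genes of collagen biosynthesis were read against the 1.21% of tests of all genes that fell and the 2.96% that rose. Of the procollagen-processing genes 14 of 63 tests fell and 0 rose, a share like that of the collagen genes themselves, and the median log2 fold change of the list was -0.63 in male tibialis anterior and -0.57 in female soleus. Adamts3, a protease that trims the amino end of procollagen, fell in 6 of 8 fits, by up to 1.52 on the log2 scale in female soleus. Of the genes of chain folding and hydroxylation 5 of 159 tests fell and 1 rose. Lysyl oxidases, which cross-link the fibres, fell in 4 of 40 tests and rose in 0. Of the collagen-cleaving enzymes 5 of 52 tests fell and 5 rose. Of the collagen receptors 5 of 74 tests fell and 3 rose, the rises near the share of all genes, and Itga2, the integrin chain of a type I collagen receptor, fell in 4 of 8 fits. Of the TGF-beta pathway genes 0 of 72 tests fell and 2 rose, both of Smad7, a share near that of all genes. At an unadjusted p under 0.05, 25 of the 72 estimates were above 0 and 4 below 0.

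Cell type markers were read beside these changes, against the same 1.21% and 2.96% of all tests. Tenocyte markers, 9 genes, fell in 27 of 72 tests and rose in 0, and their summed level in male tibialis anterior went from 266 to 527 CPM at 6 months to 127 to 372 CPM at 27 months. Kera, a tendon and cornea proteoglycan, and Chad, a cartilage and tendon matrix protein, fell in 6 fits each, and Tnmd, a tendon membrane protein, in 4. Fibroblast markers, 14 genes, fell in 20 of 112 tests and rose in 2, with 7 falls in female soleus (2.41% of all genes) and 6 in male tibialis anterior (1.29%). Their median sum in female soleus went from 1954 to 1237 CPM and in male soleus, where 0 fell, from 1537 to 1349 CPM. None of the 8 endothelial markers passed the test in any of the 8 fits, with 0 falls and 0 rises, and at an unadjusted p under 0.05 there were 16 estimates below 0 and 6 above 0 in 64 tests. Their median sum in male gastrocnemius was 338 and 315 CPM. Chondrocyte markers fell in 12 of 38 tests and rose in 2, with Matn3, a cartilage matrilin, falling in 4 fits and Sox9 rising in 2, while 4 to 6 of the 9 passed the filter on low counts, and Chad is in both the tenocyte and the chondrocyte list. Of the other lists, Schwann cell markers fell in 3 and rose in 2 of 64 tests, macrophage markers fell in 0 and rose in 6 of 64, and mesothelial markers fell in 0 and rose in 1 of 24. Cd68, a macrophage lysosomal protein, rose in 4 fits, by 0.66 to 1.34 on the log2 scale. Smooth muscle and pericyte markers fell in 1 and rose in 0 of 56 tests, muscle fibre markers fell in 1 and rose in 4 of 80, and liver markers fell in 1 and rose in 9 of 79, all 9 in female tibialis anterior (5.93% of all genes). The muscle fibre, Schwann cell, mesothelial and smooth muscle lists had too few calls to be read against the shares of all genes. The part of any of these cell types in the collagen changes was not tested.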

How the data were processed

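Total RNA of 4 mouse muscles was made into strand-specific libraries after removal of ribosomal RNA and sequenced in pairs. The authors quantified the reads with the ArrayStudio pipeline and a RefSeq-based in-house gene model on the mouse genome, build mm10 in the submitters' processing notes, and deposited raw counts per gene and library. The aligner setting and the strand used in counting are not given in the sources used here. Of 25091 rows, 633 whose symbol repeated were left out (0.0335% of the counts).

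Samples were grouped by the sex, muscle and age in the labels. Genes passing filterByExpr were tested with edgeR 4.0.16 (R 4.3.3) by its quasi-likelihood test on TMM-scaled counts, with Benjamini-Hochberg adjustment over all genes tested, and called at an adjusted p below 0.05 and a change above 1.5-fold (no fold limit for an interaction). Each sex and muscle was fitted on its own with age as 6 levels, muscles within each sex as 24 groups of muscle and age, and sexes within each muscle. Library totals of 38583802 to 300089909 counts limit the low genes most. Same-age tissues were collected on 1 day. The p-values set differences against the spread between libraries of a group, which holds no spread between collection days. No label ties the muscles of 1 mouse together, so libraries of different muscles were taken as independent in the tests between muscles. Libraries that stand apart were found by the slope of log2 levels on GC content and by liver markers. The fit was tested on simulated data. Alternatives were DESeq2 1.42.0, its size factors, limma-voom (limma 3.58.1), no filter, a block for the replicate number, a term for the run of sample numbers, Bonferroni adjustment, no fold limit, the mean over ages between muscles, leaving out each library of 6 and 27 months, and leaving out the 9 libraries that stand apart, chosen after seeing the data. Python 3.11.15 with pandas 2.3.3, numpy 2.4.6, scipy 1.17.1 and matplotlib 3.10.9 was used for levels, permutations and plots.

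The members and the gene lists were chosen with earlier results of these data known. Every member was described by class. Values per library were given for Col1a1, Col1a2, Col3a1, Col4a1, Col4a2, Col6a1, Col6a2, Col6a3 and Col15a1, and named beside them were the called member of each class with the largest change in the most fits, members that rose, members called for an interaction, and members at least 4 times higher or lower in 1 muscle than in each other muscle in both sexes. Genes of the other lists were named where called in at least 4 of the 8 fits.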

Additional observations from a re-analysis of the deposited data

Results flagged for a closer look

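In the 144 groups of the 9 genes described by library, 30 groups (20.8%) held a highest or lowest library past the 95% limit of Dixon's test, where chance gives about 1 in 20. Of these values 21 came from libraries that stand apart.

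The male diaphragm library of 6 months, replicate 2, was lowest for Col1a1 (20.5 CPM), Col4a1 (36.0), Col4a2 (14.4), Col6a1 (74.5), Col6a2 (7.20) and Col15a1 (32.0) and highest for Col3a1 (656). Female diaphragm at 6 months, replicate 2, was lowest for Col4a1 (42.8 CPM), Col4a2 (25.7) and Col15a1 (46.3), and female diaphragm at 27 months, replicate 0, was highest for Col3a1 (400.2 CPM) and lowest for Col6a2 (15.1). Female gastrocnemius at 27 months, replicate 0, was highest for all 9 genes, with 575 CPM of Col1a1, 427 of Col1a2, 311 of Col3a1, 553 of Col4a1, 389.9 of Col4a2, 169.7 of Col6a1, 177 of Col6a2, 242 of Col6a3 and 152 of Col15a1. These 4 libraries stand apart by their GC slope, and the part of that slope in each value was not tested.

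Other libraries were within the GC limit. Female soleus at 27 months, replicate 0, was highest for Col1a1 (265 CPM), Col1a2 (223), Col3a1 (194) and Col6a2 (86.0), and female soleus at 6 months, replicate 4, lowest for Col15a1 (50.7 CPM). Male tibialis anterior at 6 months, replicate 0, was highest for Col4a1 (245 CPM) and Col4a2 (168), male gastrocnemius at 6 months, replicate 2, for Col6a2 (81.6 CPM), and male diaphragm at 27 months, replicate 8, for Col3a1 (739 CPM).

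The change with age differed between groups in 8 tests of the difference in edgeR's quasi-likelihood test. On the log2 scale these were Col1a2 in males, diaphragm minus gastrocnemius (0.93), Col6a5 in males, soleus minus gastrocnemius (-2.50), Col15a1 in females, diaphragm minus gastrocnemius (-0.85) and soleus minus gastrocnemius (-0.73), Col17a1 in females, soleus minus gastrocnemius (-6.52), and, for females minus males, Col5a1 in gastrocnemius (0.66), Col4a3 in tibialis anterior (0.78) and Col17a1 in tibialis anterior (-2.75).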

How the results depend on the processing

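Of the 82 calls of a collagen gene at 27 against 6 months, 62 were made in the same direction in every fit that left out 1 library, and 20 were lost or turned in at least 1. With 1 library left out, the falls ranged from 6 to 11 in male diaphragm, 10 to 14 in male gastrocnemius, 8 to 11 in male soleus, 10 to 15 in male tibialis anterior, 8 to 15 in female diaphragm, 3 to 6 in female gastrocnemius, 16 to 20 in female soleus and 4 to 7 in female tibialis anterior, and the rises over all fits from 5 to 8. Male diaphragm reached 11 without 6-month replicate 2 and 10 without 27-month replicate 2 or 8, and female diaphragm 15 without 6-month replicate 2.

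With Bonferroni adjustment the falls at 27 against 6 months came to 2 in male diaphragm, 5 in male soleus, 6 in male tibialis anterior, 2 in female diaphragm, 1 in female gastrocnemius, 8 in female soleus and 0 in female tibialis anterior, the rises to 0, the falls at 12 against 6 months to 0, and at 27 against 12 months 2 fell and 0 rose. With no limit on the fold change the falls at 27 against 6 months came to 22 in male gastrocnemius, 11 in female gastrocnemius and 13 in female tibialis anterior, the rises to 15, the falls at 12 months to 8, and at 27 against 12 months 33 fell and 19 rose. A term for the run of sample numbers left 3 falls in male diaphragm. With no filter on low counts 10 rose. DESeq2 gave 8 falls at 12 months. Without the libraries that stand apart there were 17 falls in female diaphragm, 8 falls at 12 months, 13 differences below 0 and 2 above 0 between muscles and 1 above 0 between sexes. limma-voom gave 0 below 0 and 1 above 0 between sexes. With the mean over all 6 ages and the sexes counted together, tibialis anterior was lower than gastrocnemius in 21 tests (13 at 6 months) and higher in 3 (0 at 6 months). Col17a1 turned sign, to 0.31 in female soleus with DESeq2 and to 1.10 with DESeq2 and 0.012 with limma-voom in female tibialis anterior. The cause of these shifts was not tested. The other counts stayed within 1.5 times their value. Except for the fits without the libraries that stand apart, the share of all genes called under each setting is not given here. These counts therefore show how far the collagen calls move and are not read against all genes.

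The replicate numbers did not pair the libraries. Deviations of same-numbered libraries of 2 muscles had a median correlation of 0.044, against -0.007 for other numbers, and in 1 of 72 pairs of groups every correlation was above 0.1. Fitted with the number as a replicate block, 9 genes fell in male diaphragm and 8 in female, 11 and 4 in gastrocnemius, 11 and 18 in soleus and 10 and 5 in tibialis anterior, 7 rose, 7 fell at 12 months, at 27 against 12 months 15 fell and 7 rose, and 0 differences between sexes lay below 0 and 2 above. Between muscles the block gave 18 lower and 41 higher in diaphragm, 13 and 22 in soleus and 11 and 0 in tibialis anterior, and 5 differences in change below 0 and 1 above. The shares of all genes with the block are not given here either, so its counts are not read against them.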
